A study of Mus musculus with 18 samples.

Results

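The genes described here are 9 mouse genes associated with the resting state of naive T cells: Lef1, Tcf7, Foxo1, Foxp1, Satb1, Pik3ip1, Txnip, Btg1 and Tob1. They were taken by name, with earlier results of these data known. Every probe set that the array annotation gives to 1 of these symbols alone was used. This found 28 probe sets of 45037 tested: 2 for Lef1, 4 for Foxo1, 8 for Foxp1, 5 for Satb1, 2 for Pik3ip1, 2 for Txnip, 3 for Btg1 and 2 for Tob1. Tcf7 had no probe set under its own symbol and its expression was not analysed here, so 8 of the 9 genes carry values. No filter on low values was used, and all 28 probe sets are accounted for.

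The samples were 18 Affymetrix arrays of CD4 T cells taken from the spleens of C57BL/6 mice 9 to 15 weeks old by magnetic bead purification. Stimulated groups were Gli2A Tg, Gli2R Tg and WT cells treated with anti-CD3/CD28 for 6 h, and resting groups were Gli2A Tg, Gli2R Tg and WT cells left unstimulated, with 3 arrays in each of the 6 groups. Gli2A Tg and Gli2R Tg cells carry a transgene for an activator or a repressor form of Gli2, a transcription factor of the Hedgehog pathway, and WT cells carry none. The labels name neither the promoter that drives the transgenes nor the mouse behind each array, so the p-values measure the spread between these arrays, which may be in part technical. None of the 6 groups was kept for 6 h without anti-CD3/CD28, so the effect of the antibodies and that of the time before RNA extraction cannot be told apart, and "stimulation" below stands for both.

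Naive T cells circulate in a non-dividing state, called quiescence, that is actively maintained. Transcription factors such as Lef1, Tcf7 and Foxo1 keep genes for survival and recirculation switched on, while Pik3ip1, Txnip, Btg1 and Tob1 restrain growth signalling, glucose uptake or mRNA use. Signals through the antigen receptor and CD28 activate PI3K and AKT, which move FOXO factors out of the nucleus, and the cell then enlarges and divides.

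The promoters of 2 of the genes are shown because each holds a match to the FOXO motif GTAAACA and because Txnip fell deeply after stimulation while Btg1 did not. They come from RefSeq (build GRCm38.p6), cover 250 bases before to 50 bases after an annotated start, and are written 5′ to 3′ on the plus strand, on which both genes lie. Capitals mark the FOXO motif (in Btg1 read on the opposite strand) and, in Txnip, 2 copies of CACGAG.
Txnip, chr3:96557707-96558006: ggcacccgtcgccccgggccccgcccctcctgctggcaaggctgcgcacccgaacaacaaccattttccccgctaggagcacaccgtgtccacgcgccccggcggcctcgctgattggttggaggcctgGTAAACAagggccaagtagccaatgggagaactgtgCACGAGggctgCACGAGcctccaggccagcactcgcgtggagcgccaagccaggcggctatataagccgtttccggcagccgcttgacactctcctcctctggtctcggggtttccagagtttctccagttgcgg
Btg1, chr10:96616751-96617050: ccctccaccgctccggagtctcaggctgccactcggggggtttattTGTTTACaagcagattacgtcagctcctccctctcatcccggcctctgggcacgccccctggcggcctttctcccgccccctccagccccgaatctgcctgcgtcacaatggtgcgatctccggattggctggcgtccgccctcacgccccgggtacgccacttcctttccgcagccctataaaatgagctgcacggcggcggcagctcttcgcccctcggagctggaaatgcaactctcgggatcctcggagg
The FOXO motif lay at -121 from the start of Txnip and at -204 from that of Btg1. On either strand it occurred in 3 of the 19 promoters listed for the 9 genes, the third being one of Tcf7, and in 3.65% of all 32851 promoters of this length. The TCF/LEF motif ATCAAAG was in 0 of the 19 (3.73% of all), the E-box CACGTG in 1, a downstream start of Lef1 (7.15% of all), and the ETS motif ACCGGAA in 1, of Tcf7 (3.72% of all). A pair of CACGAG copies on 1 strand, a motif chosen after the Txnip sequence had been read, was in 0.216% of all promoters. These matches are descriptions of the letters and not evidence of binding.

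Values are log2 of the deposited intensity plus 16 after quantile normalization, and a difference of 1 on this scale is a 2-fold change in intensity plus 16; changes of dim probe sets are understated, the more so the dimmer they are. Tests were limma fits over all 45037 probe sets with Benjamini-Hochberg adjustment, and "called" means an adjusted p under 0.05. Levels of different probe sets are not comparable with each other, and each gene was read first from its brightest probe set. All 9 measured CD4 T cell markers gave signal on every array, the lowest at an intensity of 675. The 8 activation markers (among them Il2, Il2ra and Cd69) were higher after stimulation in every genotype. Other cells' markers moved with stimulation too. Summed over 13 myeloid markers, intensities were 2286 to 5733 in stimulated Gli2A Tg, 1398 to 1814 in stimulated Gli2R Tg and 1595 to 2251 in stimulated WT arrays, against 128610 to 142770, 58080 to 72809 and 74240 to 110770 in the resting arrays of the same genotypes. Of the 13, 12 were called lower in each genotype and none was listed at 0. Of 7 erythroid markers, 6, 4 and 6 were called lower in Gli2A Tg, Gli2R Tg and WT cells; their sums spanned 750 to 5423 over the stimulated and 10045 to 75938 over the resting arrays. Of the 9 CD4 T cell markers 5, 7 and 5 were called lower and 1, 0 and 0 higher, and their sum was 50521 to 58359 in the stimulated arrays and 78223 to 118680 in the resting arrays. Their part in the stimulation differences was not tested; comparisons between genotypes were also run with the myeloid mean as a covariate. In bulk RNA fewer cells of a type and less RNA per cell cannot be told apart. Male-specific transcripts marked 2 of 3 stimulated Gli2R Tg, 1 of 3 stimulated WT and 2 of 3 resting WT arrays and 0 in the other groups.

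Stimulation moved most of the member probe sets in all 3 genotypes, and most of these fell. The genes were chosen with earlier results of these data known, so the counts beside the shares of all probe sets are a description. In Gli2A Tg cells 22 of 28 were called, 7 higher and 15 lower, where 36.5% of all probe sets were called (19.3% higher and 17.2% lower). In Gli2R Tg cells 25 of 28 were called, 8 higher and 17 lower, where 36% were called (18.8% and 17.2%). In WT cells 23 of 28 were called, 6 higher and 17 lower, where 35.4% were called (18.5% and 16.9%). The median difference over the 28, stimulated minus resting, was -0.82 in Gli2A Tg, -1.13 in Gli2R Tg and -1.05 in WT cells, beside 0.06, 0.05 and 0.05 over all probe sets. Lef1, Foxo1, Pik3ip1, Txnip and Tob1 fell on their brightest probe sets in every genotype, Satb1 was called higher on 4 or all 5 of its probe sets, Foxp1 was split between its probe sets, and Btg1 showed no common direction. Across genotypes 14 probe sets were called lower in all 3 and 6 higher in all 3. The matching shares of all probe sets were not counted. They cannot exceed the smallest share of a single genotype, 16.9% lower and 18.5% higher. In 12 of the 28 all 9 stimulated arrays lay below all 9 resting arrays, a pattern held by 11.2% of all probe sets, and in 7 they lay above (12.4% of all).

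**Figure D1:**
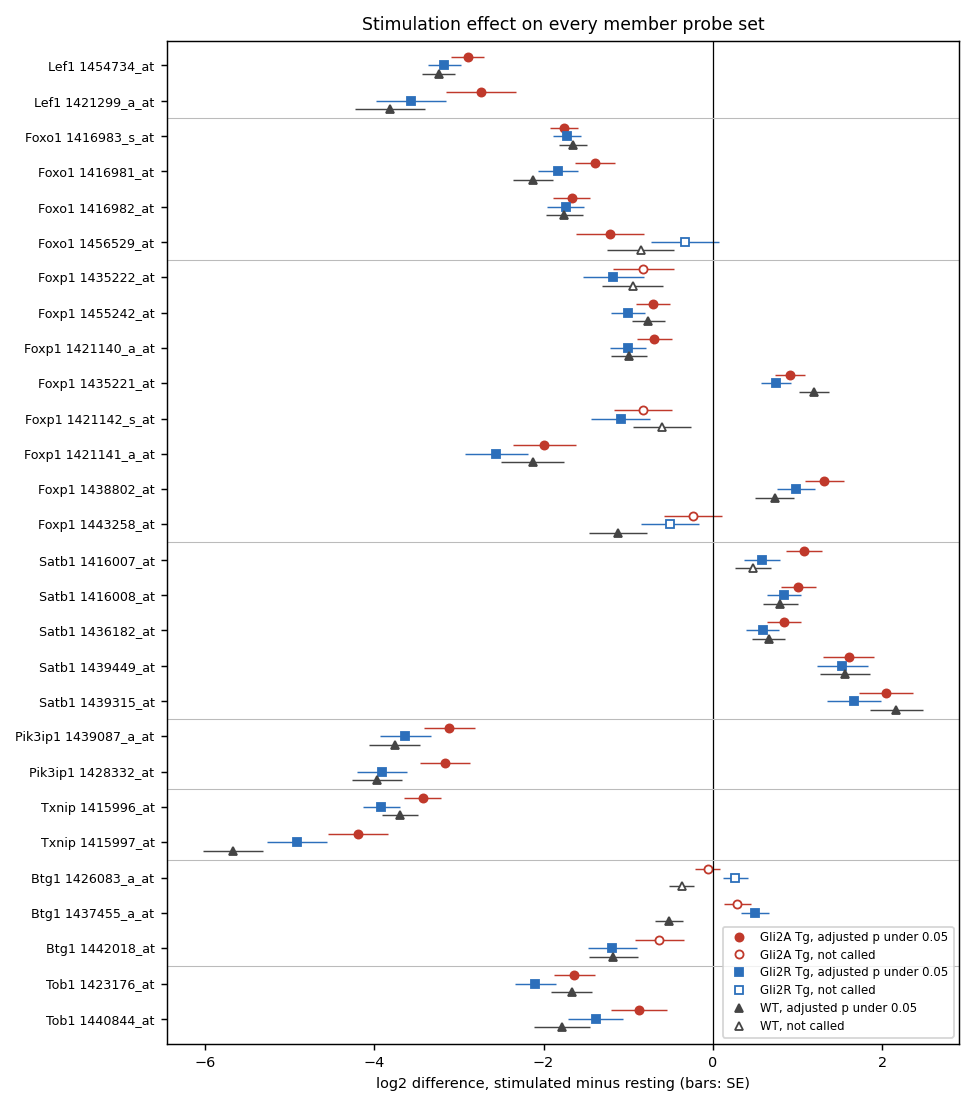
Difference between stimulated and resting arrays (log2, horizontal axis, bars are standard errors) for each of the 28 probe sets, with Gli2A Tg as circles, Gli2R Tg as squares and WT as triangles; filled symbols have an adjusted p under 0.05. Lef1, Pik3ip1 and Txnip lie at -2.74 or below in every genotype, all 5 Satb1 probe sets lie above 0, and Foxp1 probe sets lie on both sides of 0.

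Lef1, a DNA-binding partner of beta-catenin that works with Tcf7 in T cell identity, had a log2 level on its brightest probe set (1454734_at) of 9.85, 9.58 and 10.05 in stimulated Gli2A Tg arrays, against 12.97, 12.89 and 12.31 in resting ones. Gli2R Tg arrays gave 10.21, 10.15 and 10.33 stimulated, against 13.40, 13.34 and 13.47 resting. WT arrays gave 10.01, 10.07 and 9.54 stimulated, against 12.98, 13.22 and 13.14 resting. The 9 stimulated arrays thus all lay below the 9 resting arrays. The fall was 7.44-fold in Gli2A Tg (-2.89 ± 0.20 SE, adjusted p = 2.57e-08), 9.03-fold in Gli2R Tg (-3.18, adjusted p = 1.18e-08) and 9.43-fold in WT cells (-3.24, adjusted p = 1.08e-08). The second Lef1 probe set, 1421299_a_at, fell by a similar amount: its differences were -2.74, -3.57 and -3.82 in the same order of genotypes.

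Foxo1, the forkhead factor that AKT phosphorylation excludes from the nucleus, gave 10.14, 10.60 and 10.19 in stimulated Gli2A Tg arrays, against 12.33, 12.10 and 11.78 in resting ones (1416983_s_at). In Gli2R Tg arrays it gave 10.43, 10.53 and 10.46 stimulated, against 12.35, 12.24 and 12.003 resting. In WT arrays it gave 10.65, 10.53 and 10.47 stimulated, against 12.19, 12.18 and 12.23 resting. No stimulated array reached a resting one. The fall was 3.39-fold in Gli2A Tg (-1.76 ± 0.17 SE, adjusted p = 7.35e-07), 3.3-fold in Gli2R Tg (adjusted p = 9.15e-07) and 3.14-fold in WT cells (adjusted p = 1.55e-06). The suffix of this probe set marks probes that match more than 1 transcript. Probe sets 1416981_at and 1416982_at, without that suffix, fell too: the log2 differences were -1.39 and -1.67 in Gli2A Tg, -1.83 and -1.74 in Gli2R Tg and -2.12 and -1.76 in WT cells. The fourth, 1456529_at, was dim, with all 18 arrays between 4.497 and 6.496, and was called lower in Gli2A Tg cells (-1.22, adjusted p = 0.0254); its differences of -0.33 in Gli2R Tg and -0.85 in WT cells had adjusted p = 0.581 and 0.115. With a constant of 1 in place of 16 the Gli2A Tg difference was -2.17.

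Foxp1, a forkhead repressor needed for naive T cell quiescence, was read by 8 probe sets that did not move together. The brightest, 1435222_at, had log2 levels of 11.76, 10.79 and 11.94 in stimulated Gli2A Tg arrays, against 12.93, 11.74 and 12.29 in resting ones. In Gli2R Tg arrays the levels were 11.43, 11.56 and 11.77 stimulated, against 13.13, 12.91 and 12.26 resting. In WT arrays they were 11.79, 11.39 and 11.18 stimulated, against 12.76, 12.61 and 11.82 resting. Its resting arrays spread widely, and stimulated and resting arrays overlapped in Gli2A Tg cells. It was called lower in Gli2R Tg cells (-1.18 ± 0.36 SE, adjusted p = 0.0173), while the differences of -0.82 in Gli2A Tg and -0.95 in WT cells had adjusted p = 0.0906 and 0.0529.

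The deepest Foxp1 fall was on 1421141_a_at, at 3.97-fold in Gli2A Tg (-1.99), 5.9-fold in Gli2R Tg (-2.56) and 4.38-fold in WT cells (-2.13), with adjusted p = 0.000529, 5.34e-05 and 0.000308. Probe sets 1455242_at and 1421140_a_at fell in every genotype, with log2 differences of -0.71 and -0.69 in Gli2A Tg, -1.01 and -0.9985 in Gli2R Tg and -0.76 and -0.99 in WT cells. The 2 probe sets that were called higher in every genotype were 1435221_at and 1438802_at. Probe set 1435221_at had log2 levels of 10.96, 10.92 and 11.18 in stimulated Gli2A Tg arrays, against 10.15, 10.22 and 9.95 in resting ones, and of 11.46, 11.31 and 11.06 in stimulated WT arrays, against 10.06, 10.17 and 10.02 in resting ones. It rose 1.88-fold in Gli2A Tg, 1.67-fold in Gli2R Tg and 2.29-fold in WT cells, with adjusted p = 0.0007, 0.00351 and 6.49e-05. Probe set 1438802_at rose by 1.31, 0.98 and 0.73 on the log2 scale in the same order. Probe set 1421142_s_at was called lower in Gli2R Tg cells alone (-1.09, adjusted p = 0.0213), beside -0.82 in Gli2A Tg (adjusted p = 0.0773) and -0.60 in WT cells (adjusted p = 0.205). Probe set 1443258_at was called lower in WT cells alone (-1.12, adjusted p = 0.0173), beside -0.23 in Gli2A Tg (adjusted p = 0.655) and -0.51 in Gli2R Tg cells (adjusted p = 0.28). Neither difference between genotypes in this response passed its own test. Which Foxp1 transcript each probe set reads was not analysed here.

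**Figure D2:**
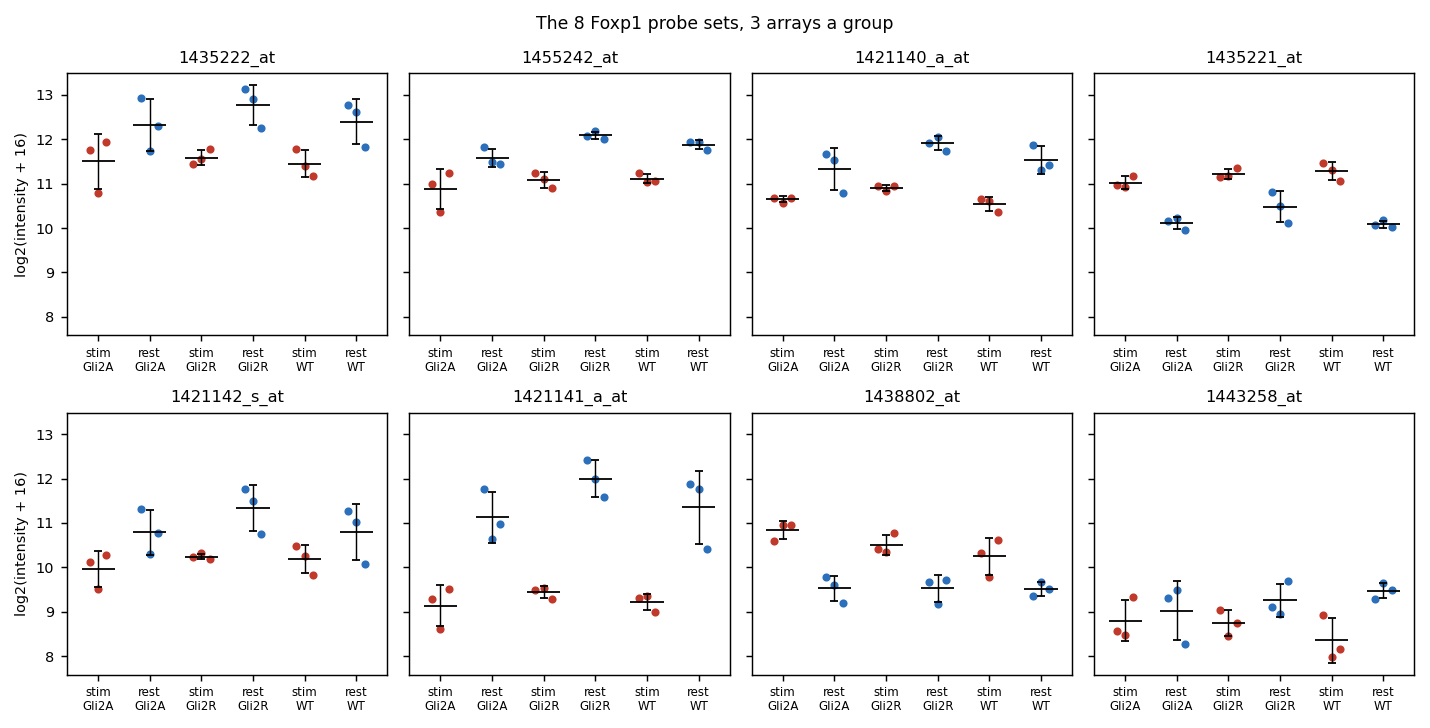
Log2 level of the 8 Foxp1 probe sets in every array (points; lines are group means, bars are SD, n = 3), with stimulated arrays in red left of resting arrays in blue for Gli2A Tg, Gli2R Tg and WT. Stimulated arrays sit above resting ones on 1435221_at and 1438802_at and below them on 1421141_a_at, 1421140_a_at and 1455242_at.

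Satb1, a chromatin organiser of developing and mature T cells, did not fall after stimulation on any of its 5 probe sets. The brightest, 1416007_at, had log2 levels of 14.01, 14.06 and 13.92 in stimulated Gli2A Tg arrays, against 13.16, 13.29 and 12.31 in resting ones. Gli2R Tg arrays had 13.74, 13.94 and 13.98 stimulated, against 13.33, 13.08 and 13.51 resting. WT arrays had 13.90, 13.80 and 13.79 stimulated, against 13.43, 13.39 and 13.26 resting. Stimulated arrays were above resting ones without overlap in all 3 genotypes. The rise was called in Gli2A Tg (2.11-fold, 1.08 ± 0.21 SE, adjusted p = 0.000716) and Gli2R Tg cells (1.49-fold, 0.58, adjusted p = 0.0415), and in WT cells the difference was 0.47 with an adjusted p of 0.0966. With each array centred on its median the WT difference was 0.88 (adjusted p = 0.00545; 0.00545 to 0.217 over 30 alternatives). The other 4 probe sets were called higher in all 3 genotypes. The widest difference was on the dim 1439315_at, at 2.04 in Gli2A Tg, 1.67 in Gli2R Tg and 2.17 in WT cells. The Satb1 differences had the opposite sign to those of Lef1, Foxo1, Pik3ip1, Txnip and Tob1 on every probe set.

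Pik3ip1, a membrane protein that inhibits the catalytic subunit of PI3K, had some of the deepest falls. Its brightest probe set, 1439087_a_at, had log2 levels of 7.36, 7.67 and 6.97 in stimulated Gli2A Tg arrays, against 10.86, 10.73 and 9.76 in resting ones. In Gli2R Tg arrays they were 7.71, 6.81 and 7.27 stimulated, against 11.04, 10.75 and 10.89 resting. In WT arrays they were 7.001, 6.71 and 7.30 stimulated, against 10.50, 11.09 and 10.72 resting. The gap between the highest stimulated and the lowest resting array was wider than the spread within any group. The fall was 8.66-fold in Gli2A Tg (-3.12 ± 0.30 SE, adjusted p = 8.64e-07), 12.4-fold in Gli2R Tg (-3.63, adjusted p = 1.86e-07) and 13.6-fold in WT cells (-3.76, adjusted p = 1.47e-07). The second probe set, 1428332_at, fell as well, with differences of -3.16, -3.91 and -3.97 in the same order.

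Txnip, an arrestin-like protein that binds thioredoxin and lowers glucose transporters at the cell surface, fell on both of its probe sets. On the brightest, 1415996_at, log2 levels were 8.83, 9.28 and 9.61 in stimulated Gli2A Tg arrays, against 12.54, 13.02 and 12.45 in resting ones. Gli2R Tg arrays were at 9.41, 9.34 and 9.17 stimulated, against 13.46, 13.19 and 13.03 resting. WT arrays were at 9.27, 9.62 and 9.05 stimulated, against 13.10, 12.95 and 12.98 resting. All stimulated arrays were below all resting arrays. Txnip fell 10.8-fold in Gli2A Tg (-3.43 ± 0.22 SE, adjusted p = 1.50e-08), 15.1-fold in Gli2R Tg (-3.92, adjusted p = 6.02e-09) and 13-fold in WT cells (-3.70, adjusted p = 9.25e-09). On 1415997_at the differences were -4.19, -4.92 and -5.67, but it was dim after stimulation (deposited intensities of 30.1, 29.5 and 11.2 in stimulated WT arrays, against 1948, 2201 and 1789 in resting ones), and with a constant of 1 in place of 16 the WT difference was -6.43.

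**Figure D3:**
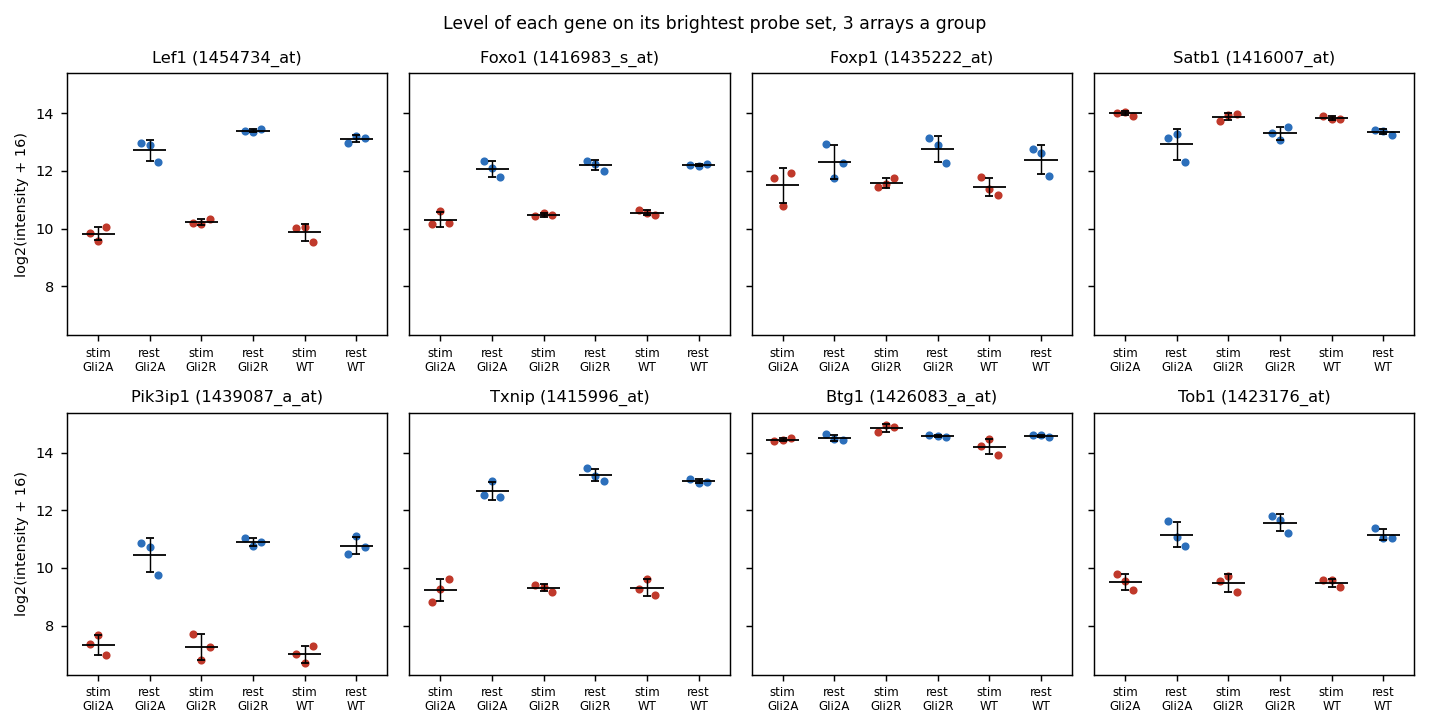
Log2 level on the brightest probe set of each of the 8 genes in every array (points; lines are group means, bars are SD, n = 3), with stimulated arrays in red left of resting arrays in blue for Gli2A Tg, Gli2R Tg and WT. Lef1, Foxo1, Pik3ip1, Txnip and Tob1 separate by stimulation, Satb1 separates the other way, and Btg1 stays between 13.94 and 14.96 in all 18 arrays.

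Tob1 and Btg1 belong to the BTG/TOB family, whose members bind the CCR4-NOT deadenylase and restrain proliferation. Tob1 (1423176_at) had log2 levels of 9.78, 9.56 and 9.23 in stimulated Gli2A Tg arrays, against 11.64, 11.08 and 10.76 in resting ones. Gli2R Tg arrays showed 9.54, 9.73 and 9.15 stimulated, against 11.82, 11.68 and 11.23 resting. WT arrays showed 9.58, 9.56 and 9.33 stimulated, against 11.38, 11.04 and 11.05 resting. The groups did not overlap. Tob1 fell 3.11-fold in Gli2A Tg (-1.64 ± 0.24 SE, adjusted p = 5.74e-05), 4.28-fold in Gli2R Tg (-2.10, adjusted p = 4.95e-06) and 3.18-fold in WT cells (-1.67, adjusted p = 5.08e-05). Its second probe set, 1440844_at, was near the low end of the array, between 4.14 and 6.31, and was called lower in each genotype (-0.87 in Gli2A Tg, -1.39 in Gli2R Tg and -1.78 in WT cells, or -1.88, -2.85 and -3.604 with a constant of 1).

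Btg1, like Foxp1, had probe sets with differences of both signs. Its brightest probe set, 1426083_a_at, lay at percentile 99.5 of all probe sets and had log2 levels of 14.42, 14.43 and 14.52 in stimulated Gli2A Tg arrays, against 14.64, 14.46 and 14.45 in resting ones. Gli2R Tg arrays read 14.70, 14.96 and 14.88 stimulated, against 14.63, 14.56 and 14.55 resting. WT arrays read 14.23, 14.46 and 13.94 stimulated, against 14.60, 14.60 and 14.53 resting. The stimulated arrays lay above the resting ones in Gli2R Tg cells and below them in WT cells, but none of the 3 differences was called (-0.06, 0.27 and -0.37, adjusted p = 0.793, 0.179 and 0.0611). The Gli2R Tg difference changed sign with the scaling, to -0.03 with each array centred on its median and -0.07 with the deposited scaling alone.

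The second Btg1 probe set, 1437455_a_at, had log2 levels of 14.14, 14.44 and 14.01 in stimulated Gli2A Tg arrays, against 14.03, 13.85 and 13.84 in resting ones. In Gli2R Tg arrays the readings were 14.12, 14.41 and 14.18 stimulated, against 13.70, 13.68 and 13.84 resting. In WT arrays the readings were 13.33, 13.53 and 13.02 stimulated, against 13.83, 13.89 and 13.72 resting. It rose in Gli2R Tg cells (1.41-fold, 0.50 ± 0.16 SE, adjusted p = 0.0258) and fell in WT cells (1.43-fold, -0.52 ± 0.16 SE, adjusted p = 0.0209), and in Gli2A Tg cells the difference was 0.29 (adjusted p = 0.191). With the arrays centred on their medians, the WT difference was -0.14 (adjusted p = 0.627; 0.00135 to 0.627 over 29 alternatives). With the sex pattern as a covariate, the Gli2R Tg difference was 0.45 (adjusted p = 0.101; 0.00196 to 0.108 over 29 alternatives). The third probe set, 1442018_at, was called lower in Gli2R Tg (-1.19, adjusted p = 0.00417) and WT cells (-1.18, adjusted p = 0.0046); in Gli2A Tg cells its difference was -0.63 (adjusted p = 0.108).

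**Figure D4:**
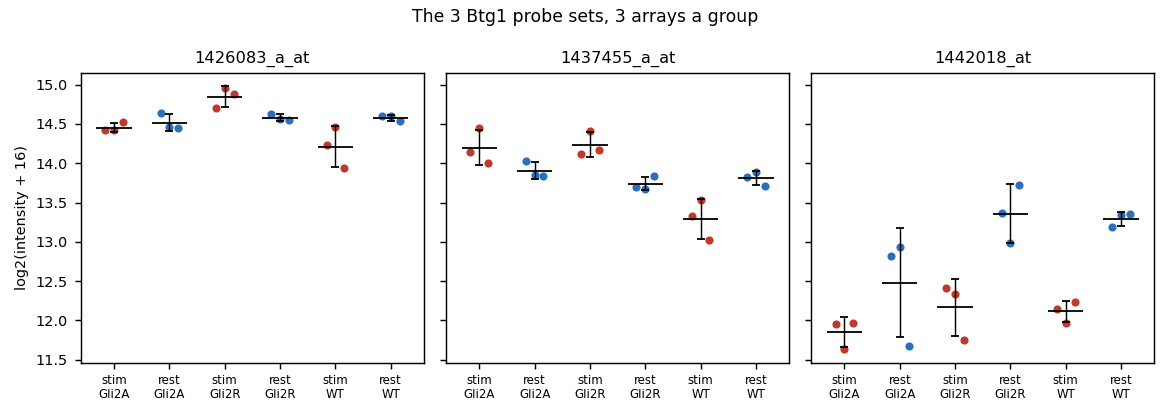
Log2 level of the 3 Btg1 probe sets in every array (points; lines are group means, bars are SD, n = 3), with stimulated arrays in red left of resting arrays in blue for Gli2A Tg, Gli2R Tg and WT. On 1437455_a_at the stimulated Gli2A Tg and Gli2R Tg arrays lie at 14.01 or above and the stimulated WT arrays at 13.53 or below.

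Between genotypes after stimulation, 1 call was made in 3 comparisons. Of the 28 probe sets, 1 was called higher in Gli2A Tg than in WT cells, where 0.12% of all were called, 0.0777% higher. In Gli2R Tg against WT cells 0 were called, where 0.06% were, and in Gli2A Tg against Gli2R Tg cells 0 were called, where 0.06% were. At an unadjusted p under 0.05 limma counted 3, 4 and 3 of the 28, beside 11.2%, 9.03% and 8.27% of all probe sets. In Gli2R Tg against WT cells 7 of the 28 were higher without overlap between the arrays (8.29% of all). Another 2, both of Satb1, were lower (8.44% of all). The 7 were both Lef1 probe sets, Foxo1 1456529_at, Foxp1 1421140_a_at, Txnip 1415997_at, and Btg1 1426083_a_at and 1437455_a_at. The Foxo1 and Txnip probe sets among them were dim after stimulation. On the brightest probe sets stimulated Gli2R Tg and WT arrays averaged 10.47 and 10.55 for Foxo1 and 9.307 and 9.313 for Txnip. In Gli2A Tg against WT cells 3 were higher and 1 lower without overlap (8.7% and 8.57% of all). For Gli2A Tg against Gli2R Tg cells the counts were 1 higher and 5 lower (7.66% and 7.07% of all). The one call was Btg1 on 1437455_a_at, which averaged 14.20 ± 0.22 in stimulated Gli2A Tg and 13.29 ± 0.26 in stimulated WT arrays (SD, n = 3 each), a 1.87-fold difference (0.91 ± 0.16 SE, adjusted p = 0.0475). Stimulated Gli2R Tg arrays averaged 14.23 ± 0.16, 1.92-fold above the same WT arrays with an adjusted p of 0.0516. Both comparisons share the 3 stimulated WT arrays. The call was held by 4 of 30 alternative settings, with adjusted p from 0.000572 to 0.469. It was lost whichever of the 18 arrays was left out (adjusted p from 0.0504 to 0.164), and also under both other scalings (0.75 and 0.76, adjusted p = 0.211 and 0.108) and with the sex pattern as a covariate (0.93, adjusted p = 0.0723). On 1426083_a_at stimulated Gli2R Tg arrays were 0.64 above WT on the log2 scale (adjusted p = 0.148) and stimulated Gli2A Tg arrays 0.25 above WT (adjusted p = 0.567), and on 1442018_at the differences were 0.05 and -0.27.

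Whether stimulation acted differently by genotype was tested as an interaction. None of the 28 probe sets was called in Gli2A Tg against WT (0.0133% of all called), in Gli2R Tg against WT (0.00222% called) or in Gli2A Tg against Gli2R Tg (0.0488% called), and limma counted 3, 2 and 0 at an unadjusted p under 0.05, beside 9.37%, 8.02% and 9.19% of all. The largest interaction against WT by p was again Btg1 on 1437455_a_at: the stimulation effect was 0.81 ± 0.23 (SE) higher in Gli2A Tg than in WT cells (adjusted p = 0.297) and 1.01 ± 0.23 higher in Gli2R Tg than in WT cells (adjusted p = 0.232). With limma's trend and robust options the Gli2R Tg interaction had an adjusted p of 0.0155, and over 29 alternatives this p ran to 0.573.

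At rest, no member was called in Gli2A Tg against WT cells, where 0.298% of all probe sets were called, or in Gli2R Tg against WT cells, where 0.0266% were; limma counted 5 and 1 at an unadjusted p under 0.05, beside 9.37% and 8.3% of all. In Gli2A Tg against Gli2R Tg cells 1 of 28 was called, lower, where 1.4% of all were called and 0.557% were called lower, and 8 had an unadjusted p under 0.05, beside 14.6% of all. The call was Lef1 on 1421299_a_at, with log2 levels of 10.36, 11.17 and 9.31 in Gli2A Tg arrays, against 12.23, 11.95 and 11.95 in Gli2R Tg arrays, a difference of -1.76 ± 0.41 SE (adjusted p = 0.0493). On the brighter Lef1 probe set the difference was -0.68 ± 0.20 (adjusted p = 0.104). Txnip on 1415997_at gave 10.27, 10.33 and 9.97 in Gli2A Tg arrays, against 11.69, 11.27 and 11.04 in Gli2R Tg and 10.92, 11.15 and 10.81 in WT arrays, without overlap with either; its difference from Gli2R Tg was -1.14 (adjusted p = 0.132).

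The resting Gli2A Tg values lean on 1 array. Replicate 3 was the lowest of the 9 resting arrays in 19 of the 28 member probe sets (67.9%, against 18% of all probe sets), and its median difference from the resting WT mean was -0.44. It had the lowest CD4 T cell marker mean of the resting arrays (log2 12.65, the others 13.10 to 13.43) and the highest erythroid mean (11.93, the others 8.48 to 10.996). The median difference over the 28 was -0.21 in Gli2A Tg against WT and -0.38 in Gli2A Tg against Gli2R Tg, beside -0.01 and -0.01 over all probe sets; without that array these medians were -0.04 and -0.09. Without it the Lef1 difference on 1421299_a_at was -1.28 (adjusted p = 0.212); over 30 alternative settings that call was held by 6, among them 2 of the 18 that leave out 1 array, with adjusted p from 0.0133 to 0.591. Resting Gli2A Tg and Gli2R Tg arrays also differed in the summed myeloid and erythroid markers without overlap (128610 to 142770 against 58080 to 72809, and 26953 to 75938 against 10045 to 17059). The same held for the summed B cell markers (14773 to 26935 against 7009.5 to 11219). Summed CD4 T cell markers were lower in Gli2A Tg arrays without overlap (78223 to 104140 against 109240 to 118680). On the Gli2R Tg side, replicate 1 was the highest of the 9 resting arrays in 12 of the 28 member probe sets. The matching share of all probe sets was not counted. Summed activation markers were 15042 and 14732 in resting Gli2R Tg replicates 1 and 2 and 8234 in replicate 3. They were 8180 to 9298 in resting Gli2A Tg and 8550 to 9996 in resting WT arrays. With the myeloid marker mean as a covariate the Lef1 difference was -1.38 (adjusted p = 0.591). The other markers were not used as covariates.

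**Figure D5:**
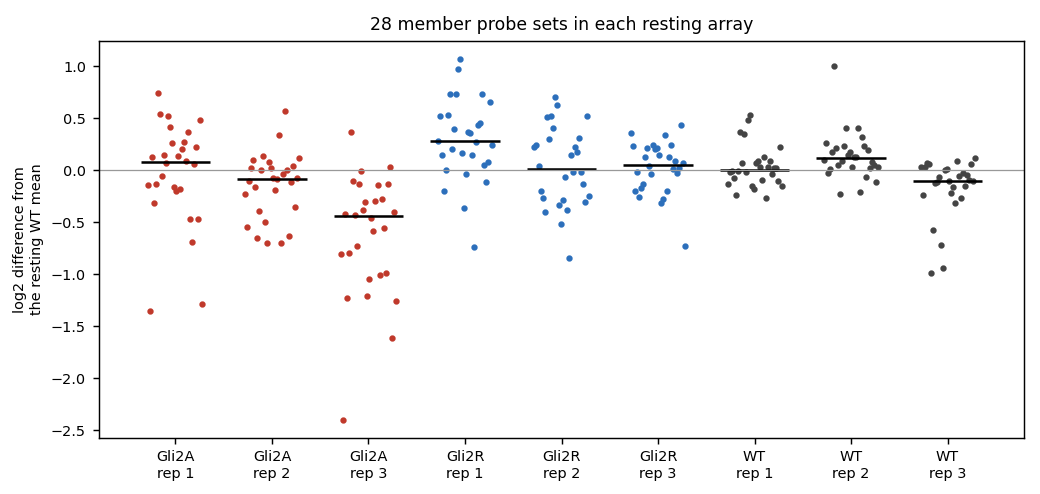
Difference of each of the 28 probe sets from its mean over the resting WT arrays (log2, vertical axis) in each resting array (points; bars are medians over the 28), for Gli2A Tg in red, Gli2R Tg in blue and WT in grey. The median of Gli2A Tg replicate 3 is at -0.44, and those of the other 8 arrays lie between -0.10 and 0.28.

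Genes that work beside the members were counted from lists of 77 names, each gene read by its brightest probe set. In the stimulation comparison 19.4% of 18193 genes were called higher and 22.1% lower in Gli2A Tg, 19% and 21.9% in Gli2R Tg, and 18.8% and 21.4% in WT cells. FOXO1 target genes followed Foxo1 in part: of 7 measured, 4 fell and 2 rose in every genotype. Il7r, the interleukin 7 receptor chain, fell, with log2 differences of -3.55, -3.52 and -3.33 in Gli2A Tg, Gli2R Tg and WT cells. In the same order the differences were -3.45, -3.02 and -2.88 for the cell cycle inhibitor Cdkn1b, -2.19, -2.61 and -2.95 for the egress receptor S1pr1, and -2.32, -3.18 and -2.66 for the quiescence factor Klf2. The lymph node homing receptor Ccr7 rose instead, by 2.03, 1.05 and 1.21, and the repressor Bach2 by 1.45, 1.4003 and 1.21. Klf2 and Ccr7 were called lower in resting Gli2A Tg than in resting Gli2R Tg cells (-1.08 and -0.97, adjusted p = 0.024 and 0.049999), where 0.572% of genes were called lower. No alternative setting was run for either gene, so their dependence on resting Gli2A Tg replicate 3 was not tested.

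Of 10 measured PI3K subunits and phosphatases, 8 were called lower in every genotype. The catalytic subunit Pik3cd fell, with differences of -2.48, -2.69 and -2.35 in Gli2A Tg, Gli2R Tg and WT cells. Those of the regulatory subunits were -1.54, -1.78 and -2.23 for Pik3r1 and -1.45, -2.37 and -1.88 for Pik3r2. Inpp4b, a lipid phosphatase, rose by 1.70 in Gli2R Tg and 2.26 in WT cells, and its difference in Gli2A Tg cells was 0.86 (adjusted p = 0.0811). The arrestin, thioredoxin and MondoA list, to which Txnip belongs by function, moved both ways: of 12, 5 rose and 3 fell in Gli2A Tg, 5 and 4 in Gli2R Tg and 4 and 2 in WT cells. Slc2a1, the glucose transporter GLUT1, rose by 2.98, 2.26 and 2.69 and the thioredoxin reductase Txnrd1 by 1.33, 1.41 and 1.66, while 2 of the 5 measured alpha-arrestins fell in every genotype, with differences of -1.89, -1.61 and -1.95 for Arrdc3 and -1.21, -1.64 and -0.96 for Arrdc2. Arrdc1 rose by 0.95, 0.54 and 0.76, and Arrdc4 fell in Gli2A Tg and Gli2R Tg cells (-0.902 and -0.85).

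Of 13 measured BTG/TOB and CCR4-NOT genes, 5 rose and 2 fell in Gli2A Tg, 4 and 1 in Gli2R Tg and 4 and 2 in WT cells. Btg2 fell (-1.26, -1.63 and -1.402), whereas Tob2 rose by 0.99, 0.95 and 1.05 and the deadenylase subunits Cnot2 and Cnot10 by 1.18, 1.27 and 1.04 and by 1.04, 1.01 and 0.91. Among 9 TCF/LEF genes and partners, 5, 4 and 5 fell and 1 rose. Tcf7l2 had differences of -4.46, -3.38 and -3.90. Its mean levels were 9.39, 7.97 and 8.52 at rest and 4.93, 4.60 and 4.62, near the low end, after stimulation. At rest it was highest in Gli2A Tg and lowest in Gli2R Tg cells, as were the summed myeloid markers. The part of other cells in the differences of the listed genes was not tested. Tle5, a shortened relative of the TLE corepressors, had differences of -3.65, -2.79 and -3.05. The corepressor Tle4 fell (-1.94, -1.14 and -1.67), while its relative Tle1, the 1 gene of the list that rose, went up by 0.70, 0.92 and 0.74. Axin2, a target of beta-catenin signalling, fell (-0.96, -1.13 and -1.19). Of 5 other FOXO and FOXP factors, 2, 3 and 2 fell. The differences of Foxo3 were -2.31, -1.49 and -1.80 and those of Foxo4 -2.03, -2.37 and -1.91. Resting Foxo3 means were 11.70, 10.83 and 11.06, in the genotype order of the summed myeloid markers. Of 14 other quiescence genes, 8, 7 and 7 fell and 0, 0 and 1 rose. Dusp6, a phosphatase of ERK, fell (-4.16, -3.36 and -3.54). So did the repressor Klf3 (-2.28, -2.16 and -2.44), the transcription factor Ets1 (-1.62, -1.54 and -2.25) and Pdlim2 (-1.93, -2.30 and -2.09). Not all genes of this list fell. Slfn1 averaged 11.61, 12.32 and 12.25 in stimulated arrays, against 11.65, 11.85 and 11.61 in resting ones. Slfn2 averaged 14.05, 14.46 and 14.63 stimulated, against 13.96, 14.06 and 14.04 resting.

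The genes with the most similar pattern over the 18 arrays were found by Pearson's r among 8851 genes above the median level. The arrays fall into stimulated and resting clusters, so r mainly follows that split and is given as a description. For Lef1 they were Dgka, Sh3bgrl3 and Arhgap45 (r 0.994 to 0.996), for Foxo1 Gimap6, Ids and Il16 (r 0.99 to 0.991) and for Foxp1 Cdkn2aip, Map3k3 and Ggact (r 0.902 to 0.923). For Satb1 they were Pip5k1a, Klhl8 and Ccr7 (r 0.943 to 0.946), for Pik3ip1 Grcc10, Saraf and Rabac1 (r 0.991 to 0.992) and for Txnip the annotated symbols Igk, Cdk2ap2 and Prkd2 (r 0.992 to 0.993). For Tob1 they were Zyg11b, Hpcal1 and Trbv13-2 (r 0.98 to 0.988). Btg1 had no comparably close match: Nadsyn1, Ccdc166 and Msn reached r 0.727 to 0.764.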

How the data were processed

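The 18 arrays, 3 in each of 6 groups, were used, and groups were taken from the labels. The deposited values are linear intensity values per probe set that the authors had scaled so that the mean without the top and bottom 2% was 500 on every array; the submitters' processing notes name affy, with no version. Median intensity per array was 55.5 to 76.3, and 3 arrays a group limit the precision.

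Here 16 was added before log2, arrays were quantile normalized, and 64 control probe sets were left out. The other 45037 were tested in R 4.3.3 for 12 comparisons with the lmFit and eBayes functions of limma 3.58.1. The fits used 1 mean per group over all 18 arrays, with Benjamini-Hochberg adjustment over all probe sets. In simulated data, WT stimulation changes of 1 and 2 on the log2 scale were called in 33% and 79% of changed probe sets. Of the calls there, 8.94% were false. Far fewer probe sets were changed in the simulation than were called in these data. Probe sets were named from the platform annotation: 34945 had 1 symbol, 932 several and 9160 none. All member probe sets were reported. From each related list up to 4 called genes with the largest change in WT cells were named. Tle1, Ccr7, Bach2, Arrdc1, Arrdc4, Slfn1 and Slfn2 were named after their values were seen. The members and lists were chosen with earlier results of these data known. Same-numbered arrays of different groups did not deviate together (45 pairs, r -0.07 to 0.08), so the numbers were not used as pairs. Alternatives were other scalings, added constants, probe set choices, limma options, covariates and each array left out. Promoters came from the RefSeq table; a planned protein comparison was not run.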

Additional observations from a re-analysis of the deposited data

How the results depend on the processing

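With 1 probe set per gene the stimulation comparisons called 6 (Gli2A Tg), 7 (Gli2R Tg) and 7 (WT) of the 8 probe sets tested, fewer by construction; under the other settings that keep all arrays the counts stayed within 1.5 times of those reported. Leaving out 1 array at a time gave 18 to 22, 20 to 25 and 20 to 24 calls. The single call at rest in Gli2A Tg against Gli2R Tg cells became 0 with median centring, the deposited scaling or a constant of 1. Array weights, the sex or myeloid covariate and the compared arrays alone also gave 0. With 1 probe set per gene the count was 0 too, but that fit did not hold the called Lef1 probe set. The count was 3 with a constant of 64, 2 among probe sets above the median level and 3 with limma's trend and robust options. Leaving out 1 array gave 0 to 1. The single call in stimulated Gli2A Tg against WT cells became 0 with median centring, the deposited scaling or a constant of 1. It was also 0 with array weights, the sex or myeloid covariate or the compared arrays alone. The fit with 1 probe set per gene gave 0 as well, but it did not hold the called Btg1 probe set. Leaving out 1 array gave 0 to 1; the 1, without stimulated WT replicate 1, was Pik3ip1 1428332_at (1.42, adjusted p = 0.0473), and the Btg1 call was lost in all 18. Stimulated Gli2R Tg against WT cells gave 1 call with a constant of 64, among probe sets with 1 symbol, above the median level and with array weights, 2 with the trend and robust options, and 0 to 1 with 1 array left out. The stimulation effect in Gli2R Tg against WT cells gave 1 call with those options. The cause was not tested.

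With the replicate block the stimulated Gli2A Tg against WT call became 0 (Btg1 1437455_a_at, adjusted p = 0.0597). At rest the block called 1 probe set in Gli2A Tg against Gli2R Tg cells, but Txnip 1415997_at (adjusted p = 0.0239) and not Lef1 1421299_a_at (0.0554). The numbers do not pair the arrays, and no same-numbered pair correlated above 0.1. Median centring moved the median of all probe sets under stimulation to 0.18 in Gli2A Tg, 0.11 in Gli2R Tg and 0.19 in WT cells, and there the member medians were -0.58, -0.98 and -0.78. In the members' own values, 9805 results under alternatives kept their side of the threshold, 51 passed it newly and 128 lost it. The 9805 include results not called under either setting whose sign changed, such as the stimulation difference of Btg1 1426083_a_at in Gli2R Tg cells. Stimulated Gli2A Tg replicate 2 had an actin 3′ to 5′ ratio of 2.996, the next highest array 1.82. It was the lowest of the 9 stimulated arrays in 8 of the 28 member probe sets (28.6%, against 15.3% of all). It also gave the highest stimulated Gli2A Tg value of Btg1 on 1437455_a_at (14.44). In the fit without it, that probe set was called higher in stimulated Gli2R Tg than WT cells (0.94, adjusted p = 0.0430). The part of RNA quality was not tested.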
